A study of Mus musculus with 18 samples.

Results

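Collagens and other genes of the extracellular matrix were followed in mouse gracilis muscle, a thigh muscle of mixed fibre types, after a single day or 10 days of clenbuterol, a β2-adrenergic agonist that enlarges muscle. The set held 39 genes, chosen by name as collagens, basement membrane proteins, matrix glycoproteins and the proteases, inhibitors and crosslinkers that turn the matrix over, together with Pdgfra, a receptor of fibroblasts and fibro-adipogenic progenitors. Of these, 38 genes were measured, out of 18161 genes with a probe set on the MOE430A and MOE430B arrays, and Fbn1 was not analysed here. Each gene was represented by its brightest probe set, all 38 of them on MOE430A and all above the filter on dim signals. The 38 genes had 87 probe sets in all, of which 77 were tested.

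The mice were C57BL/6J males, 3 to 5 wk of age, and all received intraperitoneal injections for 10 days. The C group received vehicle on all 10 days, the 24h group (labelled 1D clenbuterol) vehicle for 9 days and clenbuterol for 1 day, and the 10D group clenbuterol for 10 days, at 1 mg/kg, and muscle was taken a day after the last injection. Each group was 3 pools of RNA from 3 mice each, every pool hybridised to both arrays, which gave 18 arrays. Mice had been picked within treatments so that blood urea nitrogen and weight gain differed most from C, and were then pooled at random, so the groups are not random samples of treated mice and p-values measure the spread between these pools. The level given below is the MAS 5.0 signal over the median of all signals on that array, and differences are log2 differences of mean log2 level with their standard errors (SE). A probe set was called at an adjusted p under 0.1 (limma, Benjamini-Hochberg over 33752 probe sets of both arrays).

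The matrix between muscle fibres is laid down mainly by fibroblasts as fibrils of type I, III and V collagen, joined by type VI collagen and by small proteoglycans such as decorin. Each fibre and each capillary is wrapped in a basement membrane, a sheet of type IV collagen and laminin held together by nidogen. Matrix metalloproteinases and the serine protease Htra1 cut these proteins, the tissue inhibitors of metalloproteinases (Timp) restrain the former, and lysyl oxidase (Lox) crosslinks collagen and elastin. Whole muscle was measured, so fewer cells of a type and less RNA per cell cannot be told apart.

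Of the 38 matrix genes, each read by its brightest probe set, 2 were called higher at 24h and none lower, and neither was a fibrillar collagen. They were Htra1, a secreted serine protease that cleaves matrix proteoglycans and fibronectin, and Tinagl1, a protein of the basement membrane that binds integrins. Over all probe sets 0.456% were called in 24h against C, 0.329% higher and 0.127% lower. The members were chosen with earlier results of these data known, and the paper already lists Tinagl1 as differentially expressed on these arrays. The called Htra1 probe set was the brightest of its gene only through its treated pools. The count of 2 is therefore no test of the set against all probe sets. Both genes were also the 2 members that passed the F test among the 3 groups, which called 0.216% of all probe sets. At 10D none of the 38 was called against C, where 0% of all probe sets were called, and none was called between 10D and 24h, where 0.0504% were. At an unadjusted p under 0.05, 4 members were higher and 2 lower in 24h against C (5% and 3.55% of all probe sets), 3 were higher and none lower in 10D against C (2.64% and 1.92%), and 2 were higher and 4 lower in 10D against 24h (2.52% and 2.95%). The 24h pools lay entirely above the C pools in 6 members and entirely below in 1 (9.6% and 7.23% of all probe sets), the 10D pools above C in 4 and below in 1 (5.76% and 4.52%), and the 10D pools above the 24h pools in 2 and below in 4 (4.17% and 5.1%). Differences lay above 0 in 16 members at 24h and 18 at 10D, against 51.8% and 51.6% of all probe sets. With 1 probe set per gene, as for the members, 15131 genes were tested. In 24h against C 79 of these genes were called higher and 28 lower, and 910 were higher and 538 lower at the unadjusted p. Their 24h pools lay entirely above the C pools in 1736 genes and below in 1133, and the difference lay above 0 in 8100. Both comparisons with C share the same 3 C pools.

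The sequences upstream of the 2 genes that rose are shown because cyclic AMP, the messenger of the β2 receptor, acts on many genes through a DNA element in this region. Both are RefSeq promoter windows on GRCm38.p6, read 5′ to 3′ on the strand of the gene and ending at the base before the annotated start of the transcript. Capitals mark matches, on either strand, to the cAMP response element (TGACGTCA), to its core TGACG, to a TATA box (TATAAA), to a CCAAT box (CCAAT) or to a GC box (GGGCGG); a match to the whole element also holds the core.
Htra1, chr7:130935953-130936202, plus strand: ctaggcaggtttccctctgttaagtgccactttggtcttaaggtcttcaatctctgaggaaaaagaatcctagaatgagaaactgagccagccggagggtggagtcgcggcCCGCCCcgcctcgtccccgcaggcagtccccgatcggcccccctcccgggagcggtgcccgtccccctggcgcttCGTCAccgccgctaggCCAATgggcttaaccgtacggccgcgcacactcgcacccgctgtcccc
Tinagl1, chr4:130175123-130175372, minus strand: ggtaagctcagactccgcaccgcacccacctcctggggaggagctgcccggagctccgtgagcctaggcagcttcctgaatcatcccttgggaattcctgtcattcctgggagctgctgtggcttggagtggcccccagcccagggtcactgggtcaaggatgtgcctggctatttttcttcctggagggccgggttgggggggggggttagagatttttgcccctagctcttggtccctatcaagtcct

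The Htra1 window held the core on the opposite strand 64 bases before the start, a CCAAT box 48 bases before it and a GC box on the opposite strand 139 bases before it. The window of the outer Tinagl1 start held none of the 5 motifs. RefSeq gives Tinagl1 a second start 320 bases further in, whose window, not shown, held a GC box and none of the other motifs, and which start these muscles use is not known from these arrays. Windows were found for 27 of the 38 genes, 34 windows in all, and none held the whole cAMP response element, which was present in 1.55% of the 32851 windows of all genes. The core was present upstream of 4 of the 27 genes (Fbln5, Htra1, Pdgfra and Timp1) and in 17.8% of all windows. A CCAAT box was present upstream of 11 of the 27 and in 33.8% of all windows, a GC box upstream of 17 and in 32.7%, and a TATA box upstream of 3 (Col3a1, Postn and Tnc) and in 12.4%. Counted by window, as for all genes, the core was present in 5 of the 34 windows, a CCAAT box in 11, a GC box in 19 and a TATA box in 4. These are matches of letters and not measured binding sites.

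Among the genes of matrix remodelling, Htra1 had levels of 2.22, 3.72 and 3.28 in the 3 C pools, 17.0, 29.0 and 18.5 in the 24h pools and 5.06, 8.30 and 5.79 in the 10D pools. All 24h pools lay above all 10D pools, and these above all C pools. Htra1 rose at 24h by 2.80 ± 0.30 on the log2 scale (SE), a 6.96-fold difference (limma adjusted p = 0.00684), and the difference of 10D from C was 1.06 ± 0.30 and was not called. Between 10D and 24h the log2 difference was -1.74 (adjusted p = 0.143). With the pool number as a block this difference was called (adjusted p = 0.0361), though the labels do not say that the numbers pair the pools. On MOE430A the deviations of 24h and 10D pools from their groups correlated at 0.388 for pools 1 and 0.558 for pools 2. For pools 3 the correlation was 0.102, below that of 24h pool 3 with 10D pool 1 (0.333). Under the 21 alternative settings the adjusted p of the 24h difference ranged from 0.000409 to 0.0711. The brightest probe set of Htra1 is of a kind whose probes may match other transcripts, and the other Htra1 probe set had levels of 4.56, 5.20 and 4.37 in C, 13.1, 7.21 and 18.6 in the 24h pools and 9.01, 2.28 and 5.78 in the 10D pools. By that probe set too the 24h pools all lay above the C pools, with a log2 difference of 1.36 that was not called (adjusted p = 0.430), while its 10D pools lay on both sides of the C pools. In C that probe set was the brighter one, at a mean level of 4.71 against 3.07. The called probe set had the higher mean over all arrays only through the treated pools. Choosing by that mean favours the probe set that rises more.

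**Figure D1:**
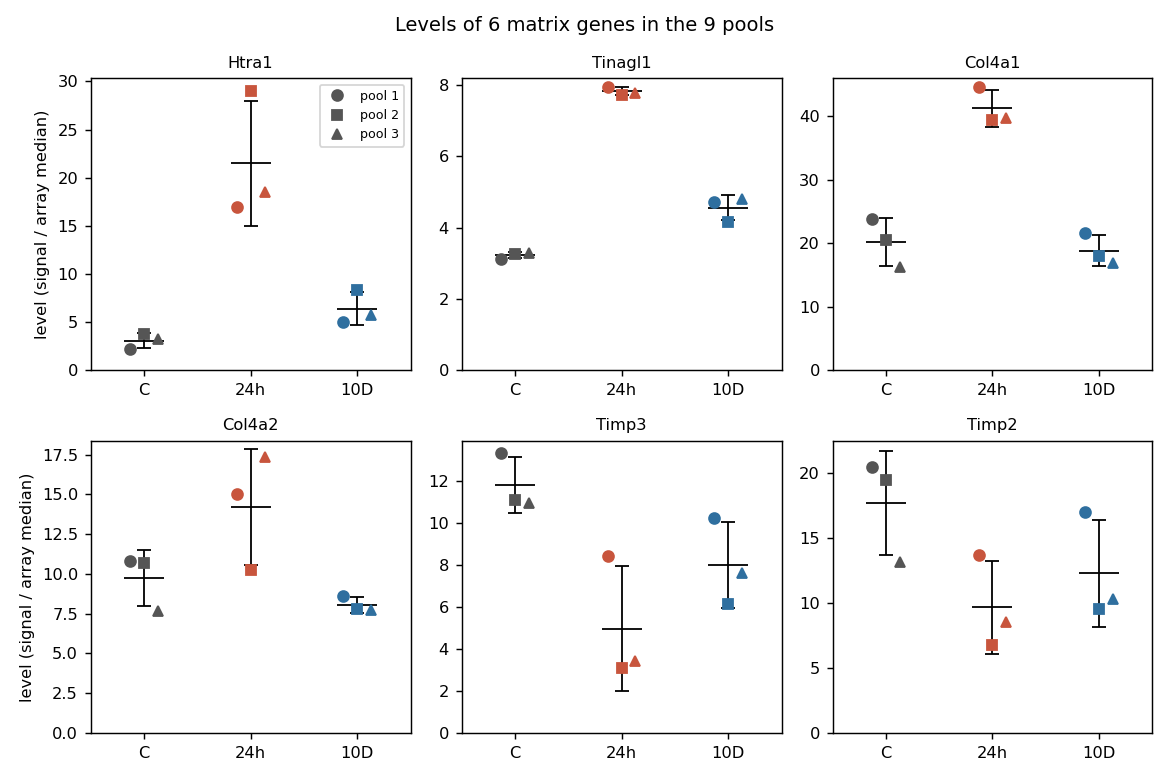
Levels of Htra1, Tinagl1, Col4a1, Col4a2, Timp3 and Timp2 in each pool, as signal over the array median on linear axes from 0, by group; points are pools, the long dash is the mean and the bar ± SD (n = 3 pools). The 24h pools of Htra1, Tinagl1 and Col4a1 all lie above the C pools and those of Timp3 all lie below, while those of Col4a2 and Timp2 overlap the C pools.

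Tinagl1 had levels of 3.13, 3.27 and 3.29 in C, 7.95, 7.74 and 7.79 in the 24h pools and 4.73, 4.17 and 4.80 in the 10D pools. The groups did not overlap, with 24h highest and C lowest, and the highest pool of a group was at most 1.15-fold its lowest. Tinagl1 rose at 24h by 1.28 ± 0.18 on the log2 scale (SE), a 2.42-fold difference (limma adjusted p = 0.0296; range over 21 alternatives, 0.0026 to 0.187). With a pool left out the log2 difference stayed between 1.25 and 1.29, but the adjusted p was no longer under 0.1 when C pool 1, 2 or 3 was left out (0.187, 0.167 and 0.123) or when 24h pool 1 or 3 was (0.101 and 0.144). The difference of 10D from C was 0.50 ± 0.18 and that of 10D from 24h -0.78 (adjusted p = 0.360), neither of them called. A single probe set measured this gene.

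Type IV collagen is a trimer built mostly of the Col4a1 and Col4a2 chains, whose genes lie head to head on chromosome 8, with annotated starts at 11312826 on the minus strand and 11312805 on the plus strand. Col4a1 had levels of 23.8, 20.6 and 16.3 in C, 44.6, 39.4 and 39.8 in the 24h pools and 21.6, 18.1 and 16.9 in the 10D pools. All 24h pools lay above every C and 10D pool, and C and 10D overlapped. The log2 difference of 24h from C was 1.04 ± 0.21, 2.06-fold, with an adjusted p of 0.104 that missed the threshold; it was under 0.1 in 9 of the 21 alternatives, those without 10D pool 1 or 2 among them, and ranged from 0.0186 to 0.343. The second Col4a1 probe set gave a log2 difference of 0.56 (adjusted p = 0.526). Col4a2 had levels of 10.8, 10.7 and 7.70 in C, 15.0, 10.2 and 17.4 in the 24h pools and 8.61, 7.80 and 7.70 in the 10D pools. Pool 2 of 24h lay among the C pools while the others lay above them, and the log2 difference of 24h from C was 0.53 ± 0.24 (adjusted p = 0.599). Between 10D and 24h the pools of neither chain overlapped, with log2 differences of -1.13 for Col4a1 (adjusted p = 0.187) and -0.79 for Col4a2 (adjusted p = 0.656).

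The other 8 genes of the basement membrane were not called in any contrast. Nid2, a nidogen that links laminin to type IV collagen, had levels of 0.474, 0.580 and 0.598 in C, 0.744, 0.891 and 0.759 in the 24h pools and 0.986, 0.673 and 0.425 in the 10D pools. Its 24h pools lay above the C pools and its 10D pools overlapped both (log2 difference of 24h from C 0.54 ± 0.35). Lama2, the laminin chain of the fibre's own basement membrane that is defective in a congenital muscular dystrophy, had levels of 2.46, 2.73 and 2.62 in C, 3.07, 2.10 and 3.08 in the 24h pools and 3.99, 2.65 and 4.04 in the 10D pools, and the groups overlapped. Lama4, Lamb1, Lamc1, Nid1, Col15a1 and Col18a1 had log2 differences of 24h from C between -0.18 and 0.46. Over the 11 genes of the group the median log2 difference was 0.15 at 24h, with 7 genes above 0 and 4 below, and 0.06 at 10D, with 6 above and 5 below. The medians over all probe sets were 0.02 and 0.01.

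**Figure D2:**
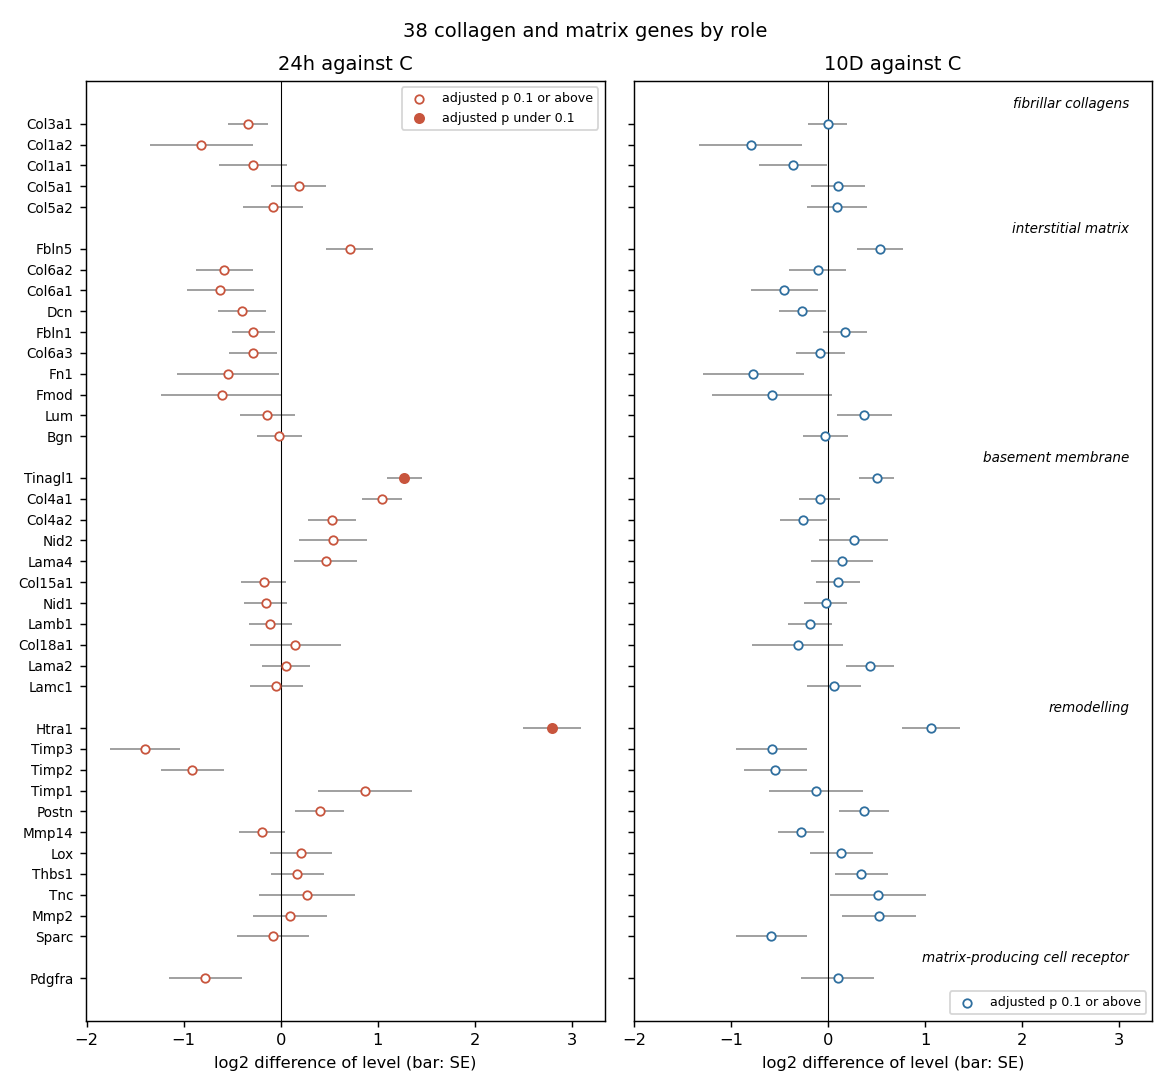
Log2 difference of level in 24h against C (left) and 10D against C (right) for the 38 genes, ordered by role, with bars of ± 1 SE; filled points have an adjusted p under 0.1. Htra1 (2.80) and Tinagl1 (1.28) are the filled points at 24h, none is filled at 10D, and 9 of 10 interstitial genes lie below 0 at 24h.

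The fibrillar collagens were not called at either time. Col1a2, the second chain of type I collagen, had levels of 106.5, 65.0 and 34.9 in C, 78.7, 19.0 and 29.6 in the 24h pools and 45.4, 24.9 and 40.2 in the 10D pools. The C pools spanned 3.05-fold and the 24h pools 4.15-fold, and all groups overlapped, with a log2 difference of 24h from C of -0.82 ± 0.53. Col1a1, the first chain, had levels of 20.0, 14.1 and 7.67 in C, 13.6, 9.56 and 9.19 in the 24h pools and 7.86, 13.1 and 9.84 in the 10D pools. Here too every group overlapped the others, with differences of -0.29 ± 0.35 at 24h and -0.37 ± 0.35 at 10D. Col3a1, the type III collagen of fine reticular fibres, varied less, with levels of 72.8, 59.0 and 55.5 in C, 58.0, 48.1 and 42.6 in the 24h pools and 66.2, 57.3 and 61.6 in the 10D pools. Its highest 24h pool lay among the C pools and its difference of 24h from C was -0.33 ± 0.20.

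Type V collagen, which sits in the core of type I fibrils, is measured by Col5a1 and Col5a2. Col5a1 had levels of 6.16, 4.48 and 5.03 in C, 5.81, 5.97 and 5.89 in the 24h pools and 3.56, 7.55 and 6.32 in the 10D pools. Col5a2 had levels of 5.75, 5.49 and 4.46 in C, 8.16, 3.32 and 4.39 in the 24h pools and 6.43, 4.82 and 5.45 in the 10D pools. The groups overlapped for both. Over the 5 fibrillar genes the median log2 difference was -0.29 at 24h, with 1 gene above 0 and 4 below, and -0.01 at 10D, with 2 above and 3 below. The SE of these differences was 0.20 to 0.53 on the log2 scale, so that shifts of this size were not detectable with 3 pools a group.

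Of the 10 measured genes of the interstitial matrix none was called. By their brightest probe sets 9 of them lay below C at 24h and 1 above, with a median log2 difference of -0.34. This median ranged from -0.55 to -0.19 as each pool was left out in turn. At 10D 7 lay below and 3 above, with a median of -0.10. The exception at 24h was Fbln5, which binds elastin and helps to assemble elastic fibres. Fbln5 had levels of 2.67, 2.26 and 1.88 in C, 4.71, 2.94 and 3.59 in the 24h pools and 3.49, 3.20 and 3.08 in the 10D pools, so both treated groups lay above C. Its log2 differences were 0.71 ± 0.24 at 24h (adjusted p = 0.401) and 0.53 ± 0.24 at 10D.

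Col6a1 and Col6a2 encode chains of type VI collagen, the microfibrillar collagen around each fibre whose loss causes myopathy. Col6a1 had levels of 18.9, 18.4 and 8.16 in C, 11.5, 6.75 and 10.0 in the 24h pools and 8.63, 10.4 and 12.3 in the 10D pools. Col6a2 had levels of 23.3, 23.4 and 14.0 in C, 15.5, 14.1 and 10.4 in the 24h pools and 13.6, 23.6 and 18.9 in the 10D pools. For both genes C pool 3 lay well below the other C pools and inside or below the range of the 24h pools, and the differences of 24h from C were -0.62 ± 0.35 and -0.58 ± 0.29. Dcn encodes decorin, which coats collagen fibrils and binds TGF-beta, and had levels of 59.4, 49.1 and 41.5 in C, 50.7, 36.1 and 28.7 in the 24h pools and 38.1, 44.5 and 40.8 in the 10D pools. The groups overlapped, with a difference of 24h from C of -0.40 ± 0.25. Fn1, fibronectin, had levels of 14.0, 13.2 and 11.3 in C, 17.7, 4.09 and 9.31 in the 24h pools and 14.1, 4.32 and 6.85 in the 10D pools. Pool 1 of each treated group stood with or above the C pools and pool 2 far below them. Col6a3, Lum, Bgn, Fmod and Fbln1, whose products are the third main chain of type VI collagen, 3 small proteoglycans and a fibulin, had differences between -0.61 and -0.01 at 24h and between -0.58 and 0.37 at 10D.

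Of the 3 metalloproteinase inhibitors none was called, and their differences did not share a direction. Timp3, the inhibitor that stays bound to the matrix, had levels of 13.3, 11.1 and 10.9 in C, 8.39, 3.07 and 3.42 in the 24h pools and 10.2, 6.13 and 7.62 in the 10D pools. Every treated pool lay below every C pool, and 24h pool 1 lay nearer to C than the other 24h pools. The log2 difference of 24h from C was -1.40 ± 0.36 (adjusted p = 0.230; range over 21 alternatives, 0.0658 to 0.620), and all 4 Timp3 probe sets lay below 0 at 24h, from -0.70 to -1.59. The Timp3 probe set at -1.59 had a level of 0.120 in 24h pool 2, a signal under the filter signal of 14.1. Timp2, which also takes part in the activation of Mmp2 by Mmp14, had levels of 20.5, 19.5 and 13.2 in C, 13.7, 6.75 and 8.59 in the 24h pools and 17.1, 9.56 and 10.3 in the 10D pools. The highest 24h pool lay just above the lowest C pool. Its log2 difference of 24h from C was -0.91 ± 0.33 (adjusted p = 0.447), and all 5 tested probe sets lay below 0 at 24h, from -0.23 to -2.13. The Timp2 probe set at -2.13 had 24h levels of 1.77, 0.333 and 0.317, with signals near the filter signal of 14.1 in pools 2 and 3. That at -0.23 lay above 0 at 10D (0.22). Timp1, the inducible soluble inhibitor, had levels of 0.698, 0.899 and 0.285 in C, 1.49, 1.23 and 0.593 in the 24h pools and 0.482, 0.595 and 0.479 in the 10D pools. Its 24h and C pools overlapped, with a difference of 0.87 ± 0.49 in the other direction from Timp2 and Timp3 that was not called.

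**Figure D3:**
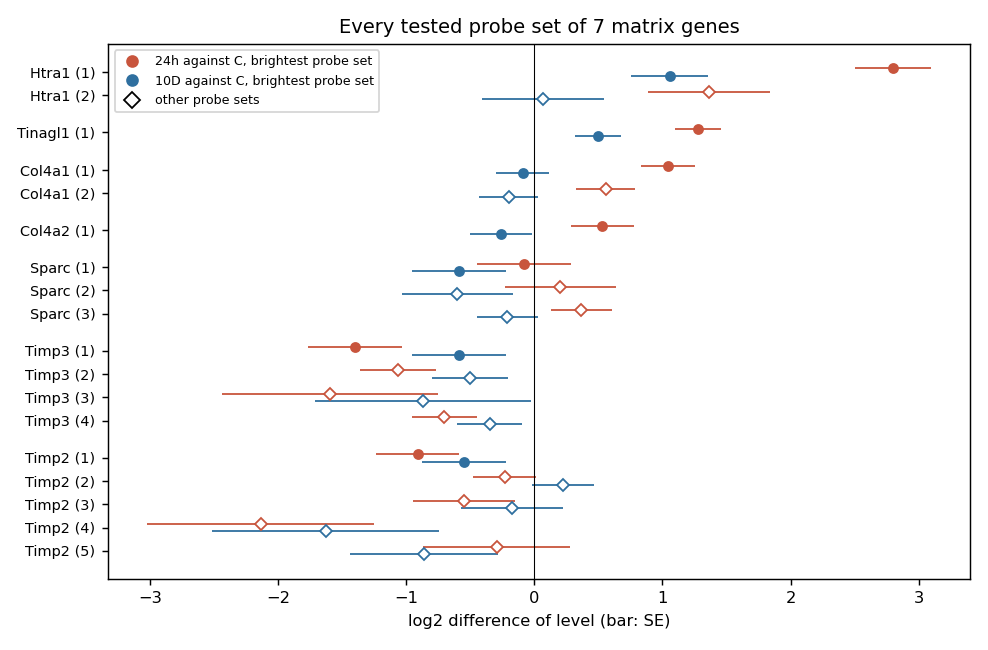
Log2 difference from C, with bars of ± 1 SE, for every tested probe set of 7 genes at 24h and 10D; number 1 of each gene is the brightest probe set (filled circles) and diamonds are its other probe sets. Both Htra1 and both Col4a1 probe sets lie above 0 at 24h, all 4 of Timp3 and all 5 of Timp2 lie below 0, and those of Sparc lie on both sides.

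The 2 proteases of the group other than Htra1 were not called, Mmp14, the membrane-bound protease (-0.19 ± 0.24 at 24h), and Mmp2, a gelatinase that degrades type IV collagen (0.10 ± 0.38). Sparc, a collagen-binding glycoprotein of the endothelium and fibroblasts, had levels of 70.8, 55.5 and 38.3 in C, 78.9, 31.3 and 51.8 in the 24h pools and 44.8, 25.4 and 39.0 in the 10D pools. The groups overlapped, with differences of -0.08 ± 0.37 at 24h and -0.59 ± 0.37 at 10D. Lox, the crosslinking enzyme, and Postn, Tnc and Thbs1, matricellular proteins made at sites of load and repair, had differences at 24h between 0.17 and 0.40, none called. Over the 11 remodelling genes the median was 0.17 at 24h, with 7 above 0 and 4 below, and it was -0.12 without 24h pool 1. At 10D the median was 0.13, with 6 above and 5 below. As each pool was left out in turn, the 10D medians of the 4 role groups crossed 0, from -0.13 to 0.11 for fibrillar collagens, -0.28 to 0.02 for the interstitial matrix, -0.17 (without 10D pool 1) to 0.24 (without 10D pool 2) for the basement membrane and -0.05 to 0.25 for remodelling.

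Pdgfra, the receptor that marks the cells which make most of this matrix, had levels of 2.08, 2.52 and 1.64 in C, 1.75, 0.703 and 1.39 in the 24h pools and 3.23, 1.66 and 1.95 in the 10D pools. The 24h pools overlapped the C pools and had the lowest pool of the series, with a log2 difference of -0.78 ± 0.38 from C (adjusted p = 0.624). The difference of 10D from 24h was 0.87 and was not called (adjusted p = 0.902).

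Pools of the same group differed over the matrix genes together. Of the 3 C pools, pool 1 was the highest in 24 of the 38 genes and pool 3 the lowest in 29. At 24h pool 1 was the highest in 27 and pool 2 the lowest in 24, and at 10D pool 1 was the highest in 23 and pool 2 the lowest in 22. As the median over the 38 genes of the log2 level relative to the mean of all 9 pools, the C pools stood at 0.14, 0.15 and -0.21, those of 24h at 0.27, -0.24 and -0.10 and those of 10D at 0.18, -0.13 and 0.00489. The spread of these medians within a group was as wide as the median differences between groups. Tendon markers, Scx, Tnmd, Chad, Kera and Mkx, ordered the pools of each group in part the same way, with a summed level of 9.03, 6.29 and 4.93 in the C pools, 9.21, 5.71 and 4.30 in those of 24h and 9.22, 4.85 and 6.53 in those of 10D, and none of the 5 was called. Markers of the muscle fibre had a summed level of 3958, 2483 and 3131 in the C pools, 2109, 3061 and 2775 in those of 24h and 1817, 3252 and 3142 in those of 10D, lowest in pool 1 of both treated groups and highest in C pool 1. The array medians on MOE430A were 30.8, 65.0 and 42.8 in C, 62.1, 35.7 and 51.1 in the 24h pools and 88.4, 33.6 and 46.6 in the 10D pools, so among treated pools those with the brightest arrays were also those with the highest matrix levels, and among C pools the dimmest array was pool 1. Their part in the spread between pools was not tested.

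**Figure D4:**
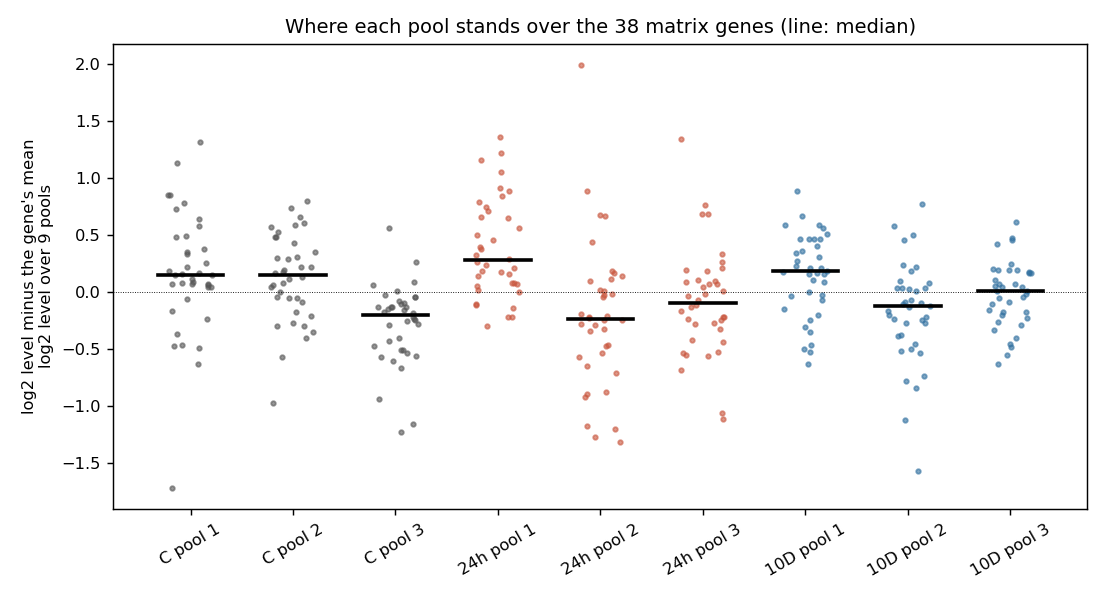
For each pool, the log2 level of each of the 38 genes minus the mean log2 level of that gene over all 9 pools (points, spread sideways at random for legibility), with the median as a black line. Medians run from 0.27 in 24h pool 1 to -0.24 in 24h pool 2, and C pool 3 stands at -0.21, below the other C pools.

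Where a gene had several tested probe sets, these did not always lie on the same side of C. Of 25 genes with more than 1 tested probe set, 15 had all of them on the same side at 24h and 10 had them on both sides, namely Col1a2, Col5a1, Col5a2, Dcn, Fbln1, Fn1, Lama4, Lox, Mmp2 and Sparc. Among these 10 the widest gap was that of Lox, whose brightest probe set stood at 0.21 and whose dimmer one at -2.29 (adjusted p = 0.375), followed by Lama4, at 0.46 and -1.25 (adjusted p = 0.493). The dimmer Lox probe set had 24h levels of 0.924, 0.148 and 0.0861. In 24h pools 2 and 3 its signal lay under the filter signal of 14.1, so the value of -2.29 rests on signals near the floor. The differences of these 10 genes given above, and the counts above and below 0 by role, are those of the brightest probe set only. Dcn, Fbln1 and Fn1 are among the 9 interstitial genes counted below C at 24h. Only the brightest Htra1 probe set and the Tinagl1 probe set were called at 24h among all 77 tested probe sets of the matrix genes.

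Genes around the matrix, 93 in 5 lists of which 86 were measured and 83 tested, gave no call in any contrast. Over all probe sets 0.456% were called in 24h against C, 0% in 10D against C and 0.0504% in 10D against 24h. At an unadjusted p under 0.05, 4 of the 83 were higher and 1 lower in 24h against C (5% and 3.55% of all probe sets). The 24h pools lay entirely above the C pools in 8 and entirely below in 3 (9.6% and 7.23% of all probe sets). Among 15 genes of collagen folding and processing, Ppib, a cyclophilin of the endoplasmic reticulum that helps collagen to fold, had levels of 7.35, 6.54 and 8.92 in C and 10.8, 10.6 and 11.6 in the 24h pools, and P4ha2, a subunit of the prolyl hydroxylase that stabilises the collagen helix, had levels of 1.71, 1.65 and 2.00 in C and 2.42, 2.59 and 2.57 in the 24h pools. In both the 24h pools lay above the C pools, with differences of 0.54 and 0.51 (adjusted p = 0.525 and 0.550). The 16 genes of TGF-beta signalling, the main growth factor pathway to matrix synthesis, had a median difference of 0.00405 at 24h, with 8 above 0 and 8 below. Those with the smallest p were its type I receptor Tgfbr1 at 0.54 and the signal transducer Smad3 at -0.32.

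Of 24 tested other matrix genes, 8 lay above 0 and 16 below at 24h, with a median of -0.07. Eln, elastin, which Fbln5 binds, had levels of 5.08, 4.73 and 2.66 in C, 10.0, 5.57 and 5.37 in the 24h pools and 3.44, 4.28 and 4.52 in the 10D pools. Its 24h pools all lay above the C and 10D pools (log2 difference from C 0.74 ± 0.32, adjusted p = 0.562). Ogn, osteoglycin, a small proteoglycan, stood at 0.30. The 13 tested other proteases and inhibitors lay between -0.40 for Serpinf1, a serpin without protease inhibitor activity, and 0.47 for the aggrecanase Adamts1, with a median of -0.07. Among 15 receptors of the matrix, Itga1, the integrin chain of the collagen and laminin receptor, had levels of 1.67, 1.59 and 1.44 in C, 2.19, 5.42 and 3.03 in the 24h pools and 1.91, 3.00 and 2.28 in the 10D pools. All treated pools lay above C (difference at 24h 1.08 ± 0.33, adjusted p = 0.315). The probe set annotated to Sgcd, a sarcoglycan, stood at -0.75 at 24h (adjusted p = 0.233), but the study lists that probe set under another gene and its identity is not settled here.

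Markers of the cells that make or border the matrix were read beside these genes. The labelled tissue was borne out by its own markers, 13 skeletal muscle fibre genes, whose summed level was 2483 to 3958 in C, 2109 to 3061 at 24h and 1817 to 3252 at 10D. All 13 lay below 0 at 24h and 12 at 10D, with medians of -0.25 and -0.24 and no call. The brightest, the fast troponin gene Tnni2, had differences of -0.19 and -0.24. The 10 endothelial markers summed to 32.9 to 38.2 in C, 37.3 to 44.9 at 24h and 30.3 to 34.7 at 10D, with 7 above 0 and 3 below at 24h. None was called. The brightest, the VEGF receptor Kdr, had log2 differences of 0.15 at 24h and -0.73 at 10D, and its 10D pools all lay below the C and 24h pools. Of the 10, the 24h pools of Emcn (0.84) and Eng (0.75) all lay above the C pools, and those of the other 8 overlapped them, among them Cldn5 (-0.28), Pecam1 (-0.13) and Vwf (-1.01). Fibroblast markers outside the set, 10 measured, summed to 123 to 166 in C, 73.4 to 139 at 24h and 75.3 to 112 at 10D, led by Gsn, with 5 above and 5 below 0 at 24h and no call.

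The sum of 7 smooth muscle markers was 102 to 115 in C, 98.3 to 112 at 24h and 98.6 to 157 at 10D, led by Rgs5, and that of 8 macrophage markers was 18.5 to 24.6, 21.1 to 31.1 and 21.2 to 26.7, led by Csf1r. None of those tested was called, and the macrophage marker Itgam was too dim to be tested. Of the 7 tested macrophage markers 6 lay above 0 at 24h and 1 below. Cd68 had levels of 1.10, 0.955 and 0.911 in C and 1.87, 1.36 and 2.23 in the 24h pools, which all lay above its C and 10D pools. The 24h pools of the other 6 tested macrophage markers overlapped the C pools. Of 5 neutrophil and lymphocyte markers S100a8 rose at 24h, from 0.205, 0.0354 and 0.196 in C to 2.78, 2.07 and 2.05 (limma adjusted p = 0.0439). In every C pool the signal of S100a8 lay under the filter signal of 14.1, so it was tested only through its treated pools. The size of its rise rests on C values near the floor. Its 10D pools, at 1.36, 1.47 and 0.468, also lay above C but were not called (log2 difference 3.12). S100a9, its partner in neutrophils, had levels of 0.844, 0.445 and 0.0397 in C and 0.538, 0.504 and 0.689 in the 24h pools. The B cell markers Ms4a1 and Cd79a stood at -1.18 (limma adjusted p = 0.106) and -0.97 at 24h, neither called, and every treated pool of Ms4a1 lay below every C pool. Skin markers had a summed level of 4.89, 8.78 and 18.7 in the C pools against 3.53 to 5.76 at 24h and 4.30 to 9.43 at 10D, with Krt10 lower in every 24h pool than in every C pool and none called. The sums of 5 adipocyte markers were 104 to 153 in C, 98.7 to 153 at 24h and 98.2 to 121 at 10D. Most of this was Fabp4, with a mean level of 97.3 in C. Of the 5, 4 lay below 0 at 24h and 1 above, and all 5 lay below 0 at 10D, with median log2 differences of -0.49 and -0.99 and no call. The sums of 4 Schwann cell markers, led by Mbp, were 8.91 to 15.8, 10.3 to 10.7 and 11.8 to 13.2. No measured marker was listed at 0 in any pool, and the part of these cells in the results was not tested.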

How the data were processed

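The authors hybridised 3 pools of RNA per group to MOE430A and MOE430B arrays and quantified them with MAS 5.0, and the deposited values are its intensities (signals) on a linear scale. The MAS 5.0 scaling and background settings are not given in the sources used here. Signals were divided by the median of their array, 18 values of 0 were set to 0.05, and log2 values were taken. Probe sets with a mean log2 signal under the 25th percentile of their array type (signals of 14.1 and 6.97) were left out, and 100 probe sets present on both types were tested once. Linear models with group as the only term (limma 3.58.1, R 4.3.3, eBayes with an intensity trend, 6 residual degrees of freedom) gave the F test and the 3 contrasts, with Benjamini-Hochberg adjustment over both arrays at 0.1 after the authors' threshold. A permutation test of 3 pools against 3 cannot go below p = 0.1 and was not used. Of 45037 probe sets, 34945 had 1 gene in the platform annotation, 932 several and 9160 none, and older symbols were updated. Each gene's probe set had the highest mean log2 signal. The members, the lists of other genes and the markers were chosen with earlier results of these data known. Named from each role were the 4 genes with the smallest p at 24h, the 3 at 10D and the brightest, from each other list the 2 with the smallest p at 24h, and from each marker list the one with the highest mean level. Other genes named were chosen after their values were seen. Detection calls, control probe sets and scan days were not used here. Deviations of same-numbered pools from their group means correlated, on MOE430A, at 0.388, 0.558 and 0.102 between 24h and 10D and at -0.07 to 0.05 between C and treated pools, and on MOE430B at 0.114, 0.160 and 0.00765 and at -0.03 to 0.03. On MOE430A 24h and 10D pools of unlike number correlated at -0.551 to 0.333. The labels give no source for a pairing. The number of arrays limits the precision. The fitting code was tested on simulated data.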

Additional observations from a re-analysis of the deposited data

How the results depend on the processing

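The 21 alternatives to the tests changed scaling, pseudocount, filter, variance model, array weights, adjustment, block or pools, and the 24h differences of Htra1 and Tinagl1 kept their direction under all of them. Leaving out both treated pools 2 was chosen after seeing the data. Members called by the F test fell from 2 to 1 with quantile normalization, without an intensity trend, with the linear model without moderation, with the replicate block and with only probe sets without _x_at or _s_at, and were 9 with array weights and 0 to 3 with a pool left out. Members called at 24h went from 2 to 5 with array weights, 4 with the replicate block and 1 with only probe sets without _x_at or _s_at, and were 1 to 3 with a pool left out. At 10D against C the count of 0 became 5 with array weights and stayed 0 with any pool left out. Between 10D and 24h the count of 0 became 1 with the linear model without moderation, 4 with array weights, 1 with the replicate block and 1 without both treated pools 2, and was 0 to 1 with a pool left out. The array weights on MOE430A stopped before converging and gave 10D pool 3 a weight of 17.1 against 0.253 to 1.60 for the others. On MOE430A the 24h and 10D pools 1 deviated together, as did pools 2, but pools 3 hardly did (correlation 0.102), and C and treated pools did not. The labels do not say that the numbers pair the pools. Under the replicate block the members called were Htra1, Tinagl1, Col4a1 (adjusted p = 0.0735) and Timp3 (0.0848) at 24h and Htra1 between 10D and 24h. Over all probe sets the calls ranged, array weights apart, from 7 to 336 for the F test (73 in the main setting), 24 to 599 at 24h (154), 0 to 5 at 10D (0) and 1 to 103 between 10D and 24h (17), and with array weights they were 4265, 888, 2880 and 2138. The basement membrane median at 10D, 0.06, was 0.24 without both treated pools 2, -0.15 as the median over all probe sets of a gene, and -0.17 to 0.24 with a pool left out. The remodelling median at 24h, 0.17, was -0.12 to 0.21 with a pool left out. The cause of these shifts was not tested.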
